A study of Mus musculus with 38 samples.

Results

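Among spleen arrays of 38 BXD mouse strains, the probe for Rpl29 lay at a low level on 15 arrays and at a high level on 23, with no array between. Rpl29, a gene of chromosome 9, encodes a protein of the large ribosomal subunit. The sets were chosen by the measured Rpl29 values themselves: the 38 log2 intensities, not normalized, were put in order and divided at the widest gap between neighbours, so all 38 arrays of the series are in the split. The arrays are called Rpl29-low and Rpl29-high below. They are not groups set by the study, and which parental strain gave the chromosome 9 segment of each strain was not given in the sources used here.

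BXD strains are inbred lines bred from crosses of C57BL/6J and DBA/2J mice, so that each strain is homozygous for blocks of one or the other parental genome. Genes that lie close together on a chromosome are mostly inherited together in such lines. A DNA difference at one gene can therefore be carried with differences at its neighbours. Ribosomal proteins are made in nearly equal amounts and assemble with ribosomal RNA into the 2 subunits of the ribosome, and Rpl29 is one of the small basic proteins of the large subunit.

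The series holds 1 spleen array per strain, labelled as control and hybridised with 1 dye on the Illumina Mouse-6 platform. RNA of 2 animals, alike in sex and strain and 8 to 12 weeks old, was mixed for each array, so a strain has 1 value and no spread of its own. By label, 13 Rpl29-low and 22 Rpl29-high strains were sampled from males, and 2 and 1 from females. The Rpl29-low strains were BXD6, BXD18, BXD32, BXD40, BXD45, BXD48, BXD62, BXD66, BXD69, BXD70, BXD73, BXD75, BXD83, BXD87 and BXD96. Strains numbered above 42 were 11 of the Rpl29-low and 8 of the Rpl29-high strains.

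Each array had 12213 to 14162 probes detected, with medians of 13239 on the Rpl29-low and 13196 on the Rpl29-high arrays. The median correlation of an array with the others ran from 0.950 to 0.978. Genes made by the exocrine pancreas, an organ that lies against the spleen, were bright on some arrays: the mean log2 intensity of 17 such genes was at least 9 on 6 Rpl29-low and 14 Rpl29-high arrays, and under 9 on 9 of each. This mean ran from 7.80 to 13.89 on the Rpl29-low arrays and from 7.82 to 15.00 on the Rpl29-high arrays. With this mean as a covariate over all 38 arrays, the same 19 probes were called as without it, 7 of them on chromosome 9. Values from the 18 arrays under 9 are also given where they bear on a result.

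On the Rpl29-low arrays the Rpl29 probe read from 173.3 (BXD62) to 279.6 (BXD70), with a median of 188.2, in raw intensity units. On the Rpl29-high arrays it read from 2659 (BXD68) to 6733 (BXD14), with a median of 4296. The medians differed 22.8-fold. The arrays just inside the gap, BXD70 at 8.13 and BXD68 at 11.38 on the log2 scale, lay 3.25 apart. These values chose the sets, so they are a description and carry no test. The Rpl29-low arrays were at 2.08 to 3.15 times the median of the undetected probes of the same array, and the Rpl29-high arrays were at least 27.6 times that median. The probe had a detection p-value of 0 on all 38 arrays. The deposited detection p-values did not follow intensity closely. On the Rpl29-high arrays ILMN_1220309, at a raw median of 1261, was detected on 6 of 23, and Ank1, at 190.4, on 23. A value of 0 therefore does not settle whether the Rpl29 transcript was present on the Rpl29-low arrays. The same 38 arrays fell on the same sides on normalized values and in the authors' processed table. The array has 1 probe for Rpl29, so no second probe could be set beside it. Of the 5 Rpl29 pseudogenes that RefSeq lists, 0 probes were among those kept. Probe sequences were not available, so a DNA difference under the probe could not be checked. Whether the low and high levels are levels of the transcript or of binding to the probe was not tested. The same limit holds for the probes of the other genes named below.

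**Figure D1:**
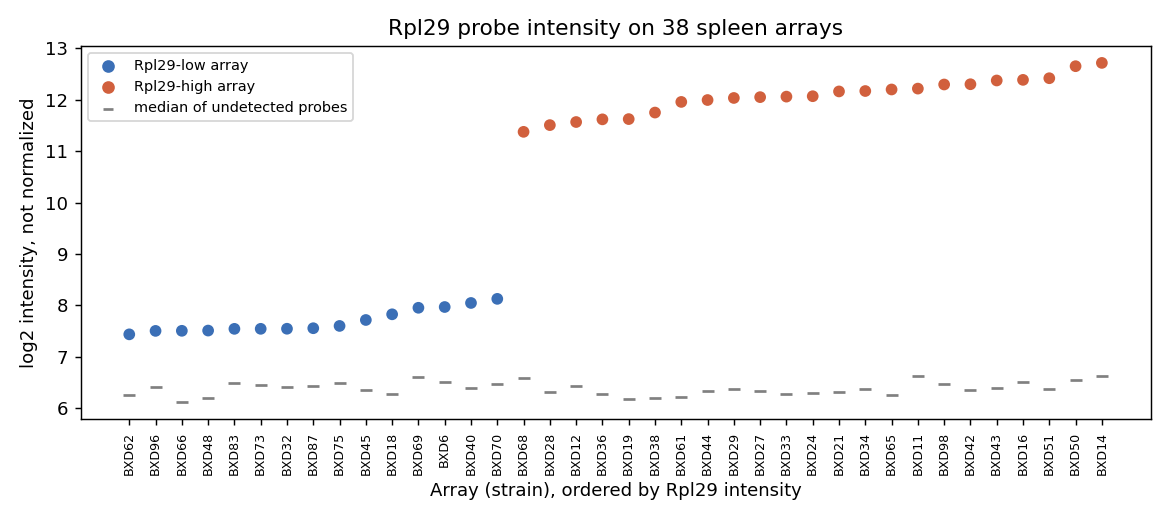
Each point is 1 array, ordered by the log2 intensity of the Rpl29 probe before normalization (y axis, log2 units), and grey marks give the median of the undetected probes of that array. The 15 Rpl29-low arrays end at 8.13 and the 23 Rpl29-high arrays begin at 11.38.

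The comparison of the 23 Rpl29-high with the 15 Rpl29-low arrays was made across all probes, to ask which other probes followed the split. Normalized log2 intensity was tested with limma, and a probe was called at a Benjamini-Hochberg adjusted p under 0.05. Of 16506 probes tested besides Rpl29, 19 were called (0.115%), 12 higher (0.0727%) and 7 lower (0.0424%) on the Rpl29-high arrays, while 631 (3.82%) had an unadjusted p under 0.05. The values of the 2 sets of arrays did not overlap for 4 probes (0.0242%). Of the 19 called probes, 7 belong to 7 named genes, all on chromosome 9, and 12 have no gene symbol in the annotation used here. Chromosome 9 had 658 probes tested, for 599 genes. On the other chromosomes 0 of 10768 probes were called by limma, 394 of them (3.66%) had an unadjusted p under 0.05, and the smallest adjusted p was 0.26, for Rps21.

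The calls on chromosome 9 lay near Rpl29 in the order of annotated genes (assembly GRCm38.p6, used for order only because the files name no build). Within 10 genes of Rpl29, 3 of 9 probes were called. From 11 to 50 genes away 2 of 26 were called, and from 51 to 200 genes away 2 of 107. Probes at an unadjusted limma p under 0.05, called ones included, were 4 (44.4%), 6 (23.1%) and 13 (12.1%) in these stretches. Beyond 200 genes 0 of 516 probes were called by limma, with 24 at an unadjusted p under 0.05. The smallest adjusted p there was 0.107, for Ube2cbp, which was called in some of the alternative runs given below.

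**Figure D2:**
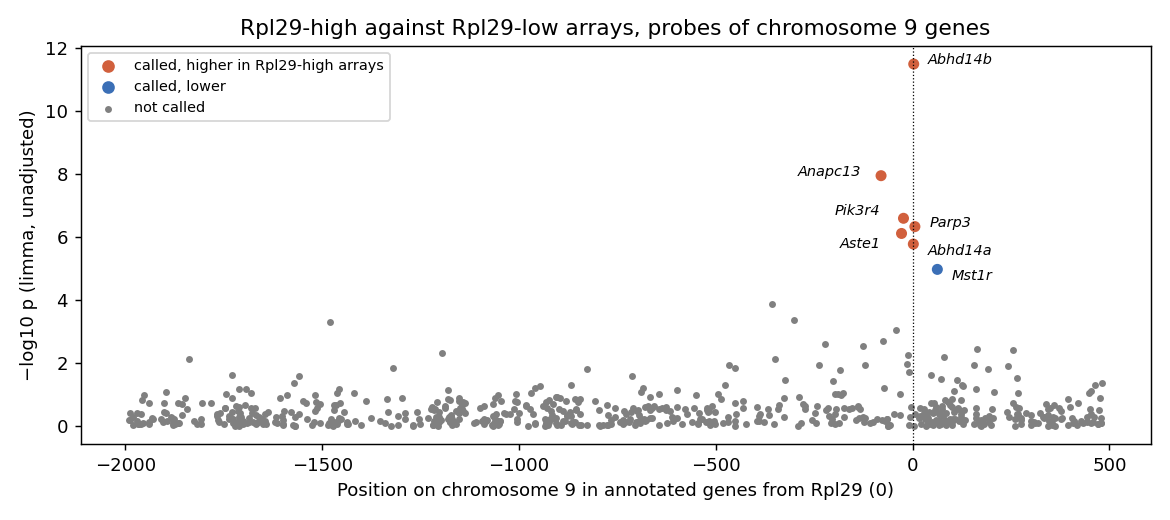
Each point is 1 probe of a chromosome 9 gene, placed by the number of annotated genes between it and Rpl29 (x axis, Rpl29 at 0, without coordinates) against −log10 of its unadjusted limma p (y axis). The 7 called probes lie between Anapc13, 80 genes before Rpl29, and Mst1r, 63 genes after it.

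Abhd14a and Abhd14b, hydrolases of the alpha/beta fold, lie 2 and 3 genes after Rpl29 in that order, on opposite strands. Parp3, 6 genes after Rpl29, encodes an ADP-ribosyltransferase that acts in the repair of DNA breaks. All 3 were higher on the Rpl29-high arrays. The stretches of 120 bases before their start sites are shown because these are the called genes nearest to Rpl29. They come from RefSeq (GRCm38.p6) and are written 5′ to 3′ on the gene's strand, with capitals for the motifs GGGCGG and CCAAT on either strand. TATAAA and CACGTG were also searched on both strands and have no match in them. The Abhd14a stretch is chr9:106447679-106447798 on the minus strand, the Abhd14b stretch chr9:106448520-106448639 on the plus strand, and the Parp3 stretch chr9:106476950-106477069 on the minus strand.
Abhd14a: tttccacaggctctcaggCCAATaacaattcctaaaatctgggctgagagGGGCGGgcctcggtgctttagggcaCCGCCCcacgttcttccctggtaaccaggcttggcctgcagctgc
Abhd14b: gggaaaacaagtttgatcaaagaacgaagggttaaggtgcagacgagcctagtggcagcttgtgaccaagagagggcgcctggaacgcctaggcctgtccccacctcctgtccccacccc
Parp3: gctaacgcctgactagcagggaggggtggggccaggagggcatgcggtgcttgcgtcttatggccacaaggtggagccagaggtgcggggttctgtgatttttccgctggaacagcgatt

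The Abhd14a stretch holds 2 matches to GGGCGG and 1 to CCAAT, and the other two hold none of the motifs. Of 32851 mouse promoters cut to the same length, 26.5% hold GGGCGG, 21.3% CCAAT, 6.34% TATAAA and 3.66% CACGTG, so such matches are common. Of Rpl29 and the 7 called genes, 7 were in the promoter table, and Rpl29 was not matched.

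Abhd14b was the named gene with the smallest p and, besides Rpl29, the named gene whose arrays did not overlap. Its normalized log2 intensity ran from 7.90 to 8.10 on the Rpl29-low arrays (median 8.02) and from 8.14 to 8.68 on the Rpl29-high arrays (median 8.30). The Rpl29-high arrays were higher by 0.34 ± 0.034 (SE; limma adjusted p = 1.06e-08), and raw intensity medians were 254.0 and 484.9. Near background the normalization compresses differences: with detection p-values smoothed over intensity, the same difference was 1.07.

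Abhd14a, its neighbour, ran from 7.86 to 8.05 (median 7.99) on the Rpl29-low arrays and from 7.97 to 8.27 (median 8.09) on the Rpl29-high arrays. The difference was 0.13 ± 0.022 (SE; limma adjusted p = 0.00172), or 0.56 with smoothed detection p-values. The sets overlapped, with 5 Rpl29-high arrays at or below the highest Rpl29-low array.

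Parp3 was brighter than both. It ran from 9.59 to 11.24 (median 10.61) on the Rpl29-low arrays and from 10.69 to 11.81 (median 11.18) on the Rpl29-high arrays. The difference was 0.66 ± 0.11 (SE; limma adjusted p = 0.000592), and 0.55 with smoothed detection p-values. Of the Rpl29-high arrays, 13 lay at or below the highest Rpl29-low array, so the sets overlapped widely.

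The 3 called genes before Rpl29 are Anapc13, Aste1 and Pik3r4, which lie 80, 28 and 23 genes away. Anapc13 is a subunit of the anaphase-promoting complex, the ubiquitin ligase that drives cells out of mitosis. Aste1 is a protein related to structure-specific nucleases, and Pik3r4 is the regulatory subunit, also called Vps15, of the lipid kinase Vps34 that acts in autophagy. All 3 were higher on the Rpl29-high arrays.

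Anapc13 had the widest difference of the 7 called named genes. It ran from 8.90 to 9.66 (median 9.30) on the Rpl29-low arrays and from 8.15 to 11.39 (median 11.12) on the Rpl29-high arrays. The difference was 1.52 ± 0.21 (SE; limma adjusted p = 1.86e-05), and 1.20 with smoothed detection p-values. Of the 23 Rpl29-high arrays, 20 lay at 10.80 or above, clear of every Rpl29-low array. The other 3 were BXD12 at 8.15, BXD65 at 9.24 and BXD21 at 9.41, all below the highest Rpl29-low array. BXD12 lay below every Rpl29-low array.

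Aste1 ran from 8.31 to 8.66 (median 8.46) on the Rpl29-low arrays and from 8.36 to 8.94 (median 8.80) on the Rpl29-high arrays. The difference was 0.28 ± 0.048 (SE; limma adjusted p = 0.000905), or 0.40 with smoothed detection p-values. The same 3 strains were its lowest Rpl29-high arrays, with BXD12 at 8.36, BXD65 at 8.41 and BXD21 at 8.46. The next, BXD16, was at 8.61. In all, 6 Rpl29-high arrays lay at or below the highest Rpl29-low array, so the sets overlapped beyond these 3 strains.

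Pik3r4 ran from 7.82 to 7.89 (median 7.86) on the Rpl29-low arrays and from 7.83 to 8.27 (median 8.01) on the Rpl29-high arrays. The difference was 0.17 ± 0.027 (SE; limma adjusted p = 0.000348), or 1.07 with smoothed detection p-values. BXD12 at 7.83 and BXD65 at 7.84 were the only Rpl29-high arrays at or below the highest Rpl29-low array. BXD21, at 8.09, lay with the other Rpl29-high arrays at this gene. Along the chromosome, then, BXD12 and BXD65 lay at or below the highest Rpl29-low array at Anapc13, Aste1 and Pik3r4, and BXD21 at Anapc13 and Aste1. All 3 lay above every Rpl29-low array at Rpl29, Abhd14a and Abhd14b. At Parp3, BXD12 and BXD65 were among the 13 Rpl29-high arrays at or below the highest Rpl29-low array, while BXD21 lay above it. These strains were singled out after their values were seen, and no test is attached to them.

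**Figure D3:**
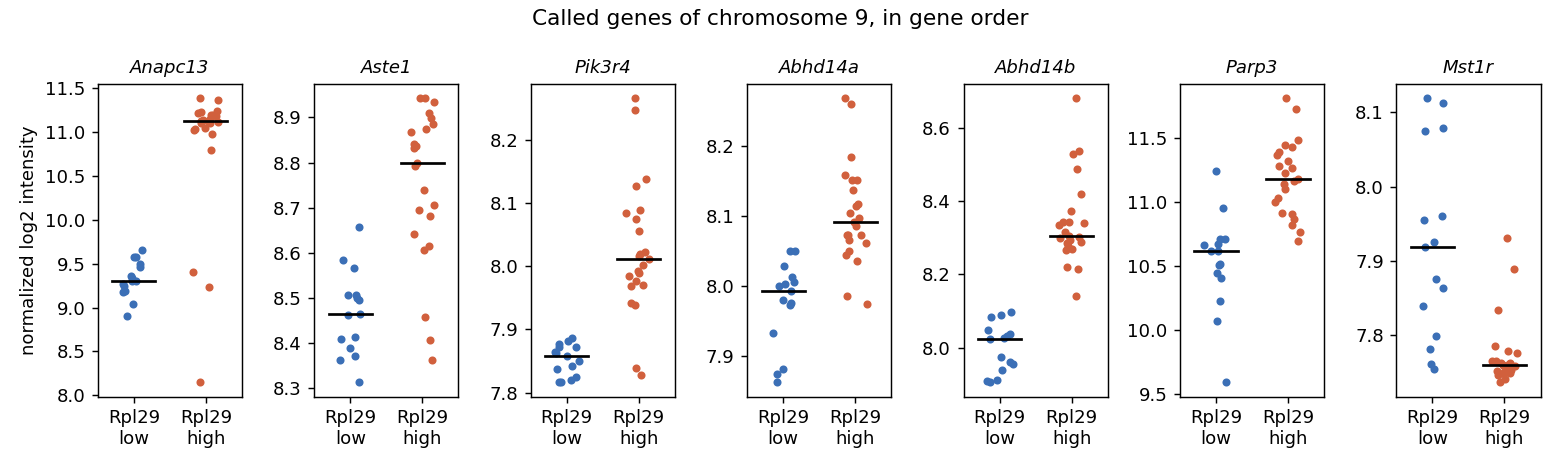
Normalized log2 intensity (y axis, own scale per panel) of the 7 called chromosome 9 genes on the 15 Rpl29-low and 23 Rpl29-high arrays, in gene order with the first 3 before Rpl29. Points are arrays and lines are medians. Anapc13 has 3 Rpl29-high arrays below the highest Rpl29-low array, and Mst1r is the gene that was lower on the Rpl29-high arrays.

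Mst1r, 63 genes after Rpl29, encodes the receptor for macrophage-stimulating protein, also called Ron. It was the called gene that fell. It ran from 7.75 to 8.12 (median 7.92) on the Rpl29-low arrays and from 7.74 to 7.93 (median 7.76) on the Rpl29-high arrays. The difference was -0.15 ± 0.029 (SE; limma adjusted p = 0.00921), or -1.54 with smoothed detection p-values. The probe was dim, with raw medians of 193.9 and 100.8, and was detected on 13 of 15 Rpl29-low but 5 of 23 Rpl29-high arrays. The sets overlapped on 9 Rpl29-low arrays.

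Leaving out each of the 38 arrays in turn kept all 7 genes called. In the 18 arrays with a pancreas mean under 9 (9 in each set), an alternative chosen after seeing the data, Abhd14b was higher by 0.36 (limma adjusted p = 0.000146) and Parp3 by 0.70 (limma adjusted p = 0.00195). The other 5 kept their direction and no longer passed. There the difference was 1.46 for Anapc13 and 0.16 for Pik3r4 (limma adjusted p = 0.0529 for each), 0.10 for Abhd14a (0.0775), 0.32 for Aste1 (0.124) and -0.10 for Mst1r (0.418).

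Not every gene close to Rpl29 was called. The 5 nearest measured genes before Rpl29 were Poc1a (centriole assembly), Alas1 (the first enzyme of haem synthesis), Twf2 (an actin-binding twinfilin), Ppm1m (a protein phosphatase) and Wdr82 (a subunit of histone methyltransferase complexes). Their differences were 0.06, 0.03, -0.16, -0.01 and -0.05. After Rpl29, Pcbp4 (an RNA-binding protein) and Rrp9 (which takes part in ribosomal RNA processing) were measured among Abhd14a, Abhd14b and Parp3, with differences of 0.00 and -0.04. None of these 7 passed, each at a limma adjusted p of 0.999. The unadjusted limma p was 0.00537 for Wdr82 and 0.0188 for Twf2, both lower on the Rpl29-high arrays. With smoothed detection p-values their differences were -0.34 and -0.13. Alas1, with a level of 11.66 to 12.11 on the Rpl29-low and 11.63 to 12.24 on the Rpl29-high arrays, shows the overlap at a bright probe.

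With smoothed detection p-values, all 19 probes were called again together with 3 more named genes, all on chromosome 9. These 3 were chosen after their values were seen. Cpne4, a copine 33 genes before Rpl29, was lower on the Rpl29-high arrays, with a difference of -2.17 ± 0.25 (SE; limma adjusted p = 1.61e-07), yet its probe was detected on 0 arrays by the deposited p-values. Rbm5, a splicing regulator 59 genes after Rpl29, was also lower, with a difference of -0.66 ± 0.13 (SE; limma adjusted p = 0.0125), but this probe was detected on 1 array. The other Rbm5 probe, which was kept, was at -0.05 ± 0.046 (SE; limma adjusted p = 0.999). With no detection filter and no smoothing, Cpne4 and Rbm5 were called as well, together with Iqcf5, also on chromosome 9. Ube2cbp, 357 genes before Rpl29, was higher by 1.40 ± 0.31 (SE; limma adjusted p = 0.0486), against 0.32 and 0.107 without smoothing. It was also called without smoothing when H2-Ab1 level was a covariate. The same held when BXD12, BXD16, BXD21, BXD32, BXD38, BXD44 or BXD48 was left out.

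Chromosome 9 probes were also searched for levels of their own, by a gap of at least 0.5 on the log2 scale, wider than the SD of either side, with at least 5 arrays on each side. Of 658 probes, 4 had such levels besides Rpl29. Each was turned to the direction in which it shared more arrays with the Rpl29 split. Anapc13 put 35 of 38 arrays on the same side as Rpl29, differing in BXD12, BXD21 and BXD65. Srpr, a subunit of the signal recognition particle receptor, and Ddx25, an RNA helicase known from germ cells, both shared 24. Csrnp1, a nuclear protein, shared 22. The last 3 lie over 200 genes from Rpl29, and their levels did not run with it. With smoothed detection p-values 7 probes had such levels, among them Ube2cbp, which shared 30 arrays, Olfr887 with 22 and Zw10 with 21.

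The 12 called probes without a symbol were 6 higher and 6 lower, with differences from -1.36 to 2.07. Of these, 3 had sets of arrays that did not overlap. ILMN_1224719 ran from 14.20 to 14.52 on the Rpl29-low and from 12.37 to 13.34 on the Rpl29-high arrays, so it was bright throughout and lower where Rpl29 was high. ILMN_1236680 ran from 7.90 to 8.30 on the Rpl29-low and from 8.69 to 9.54 on the Rpl29-high arrays. When split at their own widest gaps, these 2 probes put all 38 arrays as Rpl29 did, the first in reverse. ILMN_1245034 ran from 9.21 to 10.16 and from 10.79 to 12.36. Another 3 of the 12 differed from the Rpl29 split in BXD12, BXD21 and BXD65, the strains in which Anapc13 differed. Where these probes lie in the genome was not analysed here.

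The other ribosomal protein genes were asked whether they moved with the split. Of 32 large-subunit genes measured besides Rpl29, 0 were called by limma, 6 had an unadjusted p under 0.05, 6 were positive and the median difference was -0.06. Of 18 small-subunit genes, 0 were called, 4 had an unadjusted p under 0.05, 2 were positive and the median was -0.07. Over all 10399 genes tested, 47.6% were positive with a median of -0.00094, and 408 (3.92%) had an unadjusted p under 0.05. The counts of list members are set beside this share. Members of a list can vary together from array to array, so they are not independent and a count above the share is no test. On the authors' processed values the large-subunit count at that p was 1 and the small-subunit count 0. Among the ribosomal genes Rps21 had the smallest p, at -0.14 ± 0.036 (SE; limma adjusted p = 0.26). Without BXD12 it was at -0.12 and passed (limma adjusted p = 0.00731), and it is then the call outside chromosome 9.

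These ribosomal medians depended on the setting. With the pancreas mean as a covariate the large-subunit median was -0.03 with 11 of 32 positive, while the small-subunit median stayed at -0.06 with 4 of 18 positive. On the authors' processed values, 15 of 32 and 6 of 18 were positive, with medians of -0.01 for each subunit. In the 18 arrays with a pancreas mean under 9, 17 of 32 and 9 of 18 were positive, with medians of 0.03 and 0.0024. The array means of the large-subunit list ran from 12.96 to 13.13 on the Rpl29-low and from 12.61 to 13.08 on the Rpl29-high arrays, and BXD12 was the lowest of all 38. Because the RNA came from spleen tissue and not from separated cells, a change in cell makeup and a change in RNA per cell cannot be told apart. The part of pancreas signal or of the normalization in these medians was not tested.

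**Figure D4:**
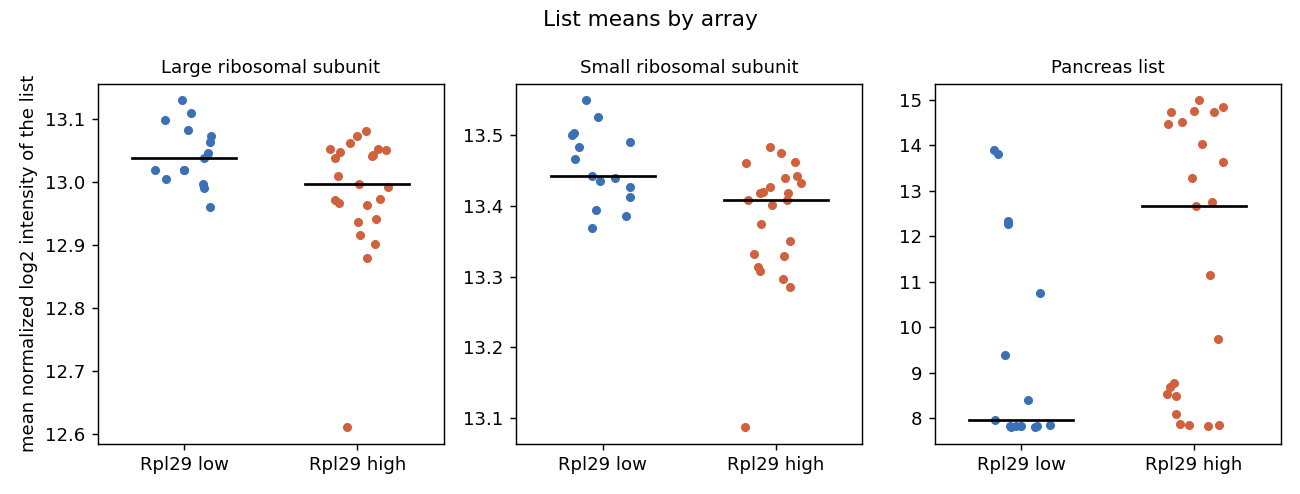
Mean normalized log2 intensity per array (y axis, own scale per panel) of the measured genes of the large ribosomal subunit without Rpl29, the small ribosomal subunit and the pancreas list, by Rpl29 set. Points are arrays and lines are medians. The ribosomal sets overlap, with BXD12 lowest at 12.61 in the large-subunit panel, and the pancreas list spans both sets from about 8 upward.

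Lists for neighbouring steps of protein synthesis gave 0 called members by limma. Of 16 ribosome biogenesis genes, 9 were positive with a median of 0.01 and 1 had an unadjusted p under 0.05, Bop1 at 0.13 (limma adjusted p = 0.999). Of 13 translation factors, 6 were positive with a median of -0.01. Of 11 genes of the integrated stress response, 5 were positive with a median of -0.00096 and 3 had an unadjusted p under 0.05, with Slc7a11, a cystine transporter, at -0.07 (limma adjusted p = 0.73). Of 11 targets of p53, 5 were positive and 0 had an unadjusted p under 0.05.

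Lists of spleen cell types also had 0 called members. Of 14 T cell genes 8 were positive with a median of 0.0014, of 16 B cell genes 3 with -0.03, of 11 macrophage genes 2 with -0.10, of 11 neutrophil genes 3 with -0.07 and of 15 erythroid genes 12 with 0.03. Of 29 immune genes of chromosome 9, 10 were positive with a median of -0.03. Of 8 NK and cytotoxic genes 5 were positive, of 8 plasma cell genes 5, of 9 stroma and capsule genes 3 and of 3 adipose genes 0. Beyond cell types, 12 of 13 cell cycle genes were positive with a median of 0.05. Of 8 interferon genes 6 were positive, and of 8 immediate early genes 3. From NK to immediate early genes, 0 members had an unadjusted limma p under 0.05. Megakaryocyte genes were negative in 8 of 8, with a median of -0.18 and 2 at an unadjusted p under 0.05, Ppbp at -0.32 and Vwf at -0.33 (limma adjusted p = 0.999 for each). The pancreas list was positive in 17 of 17, with a median of 2.04. Its count at an unadjusted p under 0.05 was 10 but depended on the setting: it was 0 in males only, with strain number as a covariate or with Rpl29 as a continuous covariate, and 16 with smoothed detection p-values. Pnliprp2, a pancreatic lipase-related gene, was at 1.71 ± 0.71 (SE; limma adjusted p = 0.999).

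Genes elsewhere with levels of their own did not divide the arrays as Rpl29 did, though some were uneven between its sets. H2-Ab1, an MHC class II chain gene of chromosome 17, was low on 8 and high on 7 Rpl29-low arrays and low on 14 and high on 9 Rpl29-high arrays. Glrx, a glutaredoxin on chromosome 13, was low on 4 and high on 11 Rpl29-low arrays against 13 and 10 of the Rpl29-high arrays. Its difference was -1.16 ± 0.56 (SE; limma unadjusted p = 0.0466, adjusted 0.999). Slpi, on chromosome 2, was low on 10 and high on 5 Rpl29-low arrays against 9 and 14 of the Rpl29-high arrays. Its probe differed by 1.58 ± 0.83 (SE; limma unadjusted p = 0.0649, adjusted 0.999).

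Immunophenotypes from flow cytometry were available for 34 of the strains, 11 Rpl29-low and 23 Rpl29-high. The 4 strains without them, BXD70, BXD75, BXD83 and BXD87, were all Rpl29-low. These traits are values per strain, measured independently of the arrays, and are not read here as the makeup of the arrayed spleens. Of 7 traits compared by two-sided permutation of strain means, 0 passed after Benjamini-Hochberg adjustment, 0 had an unadjusted p under 0.05 and the smallest adjusted p was 0.224. CD8+ cells were 15.0% ± 5.82 (SD, n = 11) of lymphocytes in the Rpl29-low strains and 11.6% ± 4.29 (SD, n = 23) in the Rpl29-high strains. The difference was -3.48 points with a 95% interval of -7.67 to 0.72 (permutation p = 0.0583, adjusted 0.224). Without the 2 strains farthest from the median it was -1.20 (permutation p = 0.452). The unadjusted permutation p was 0.0326 in males only and 0.0224 when permuted within H2-Ab1 levels, with adjusted p of 0.153 and 0.148. CD3+ cells, the T cells, were 36.8% ± 11.5 and 31.4% ± 9.66, and CD79+ cells, the B cells, 54.9% ± 11.8 and 61.2% ± 9.66 (SD, permutation adjusted p = 0.224 for each). Permuted within H2-Ab1 levels, the unadjusted permutation p for CD79+ cells was 0.0479, adjusted 0.148.

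CD4+ cells were 21.4% ± 6.54 (n = 11) and 19.1% ± 6.14 (SD, n = 22, permutation adjusted p = 0.376), leaving out BXD33, whose entry is above 100. The natural log of the CD4 to CD8 ratio was 0.37 ± 0.18 and 0.53 ± 0.32, and that of the T to B ratio -0.43 ± 0.55 and -0.73 ± 0.52 (SD, permutation adjusted p = 0.224 for each). The natural log of median MHC class II on B cells was 3.70 ± 0.30 and 3.63 ± 0.29 (SD, permutation adjusted p = 0.548). The intervals of these differences all held 0, and the strains of both sets overlapped in each trait.

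**Figure D5:**
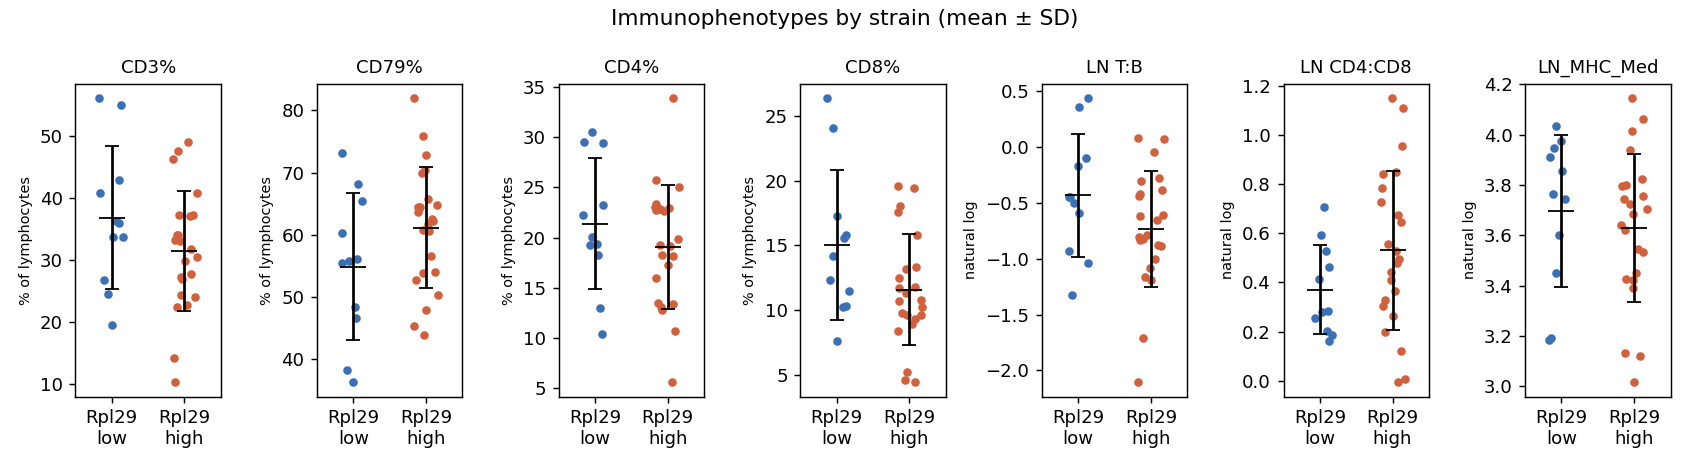
The 7 immunophenotypes by strain (y axes, percent of lymphocytes or natural log values) in the Rpl29-low and Rpl29-high strains. Points are strains and bars are mean ± SD, and both sets overlap in every panel.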

How the data were processed

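The deposited probe intensity values are averaged over beads and not normalized, and each carries a detection p-value, per the file headers. The authors' other array table holds processed values resembling log2 intensities. The submitters' processing notes name lumi, with no version, and no source used here gives the transformation. The deposited phenotypes are percent of lymphocytes and natural log values, per the labels.

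Background correction and quantile normalization used limma (neqc, version 3.58.1, offset 16; R 4.3.3; data.table, version 1.17.8). A probe was kept if 3 or more arrays had a detection p-value below 0.01, which left 16507 of 34492. The platform annotation gave 20256 probes a single symbol, 9 several and 14227 none. The split was tested with lmFit and eBayes. For smoothing, probes were ranked by intensity on each array and a detection p-value was replaced by the median of a 201-probe window. Traits were compared with 100000 permutations. With 1 pool per strain, p-values reflect differences among strains, technical ones included, and the number of arrays limits the precision.

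The members and gene lists were chosen with earlier results of these data known. Genes were named by rule: Rpl29, the 5 nearest measured genes on each side, called genes, and the 2 smallest p of each list. The 7 other loci with levels of their own were also taken. Not all are printed. The fit was checked on simulated data. Alternatives changed normalization, filter, grouping, covariates and arrays.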

Additional observations from a re-analysis of the deposited data

How the results depend on the processing

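The 7 chromosome 9 genes kept their direction in every alternative run, and all were called in each planned one except that Mst1r was not among the probes detected on all 38 arrays. With those probes only, 12 were called, 6 of them unnamed, and all 12 were among the 19 called in the main run. The rest of the 19 were not detected on all 38 arrays and so were not tested. In the 18 arrays with a pancreas mean under 9, 11 were called: 2 on chromosome 9, 5 unnamed, and 4 on other chromosomes (Ehd4, Get3, Matk and Thrap3, named after their values were seen). There Anapc13 was at 1.46, Pik3r4 0.16, Aste1 0.32, Abhd14a 0.10 and Mst1r -0.10, all short of the threshold; the cause was not tested beyond the fewer arrays. Smoothing raised the chromosome 9 probes with levels of their own from 4 to 7 (added after seeing the data).

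Leaving out 1 array gave 0 to 1 calls on other chromosomes and 0 to 1 small-subunit calls, both Rps21 without BXD12. Without BXD12 chromosome 9 had 9 called probes, with Ryk and Ube2cbp added. No other count of called probes moved by over 1.5 times, and no trait changed its call after adjustment. Counts at an unadjusted p under 0.05 were less steady: over all probes 631 became 976 without BXD98, 1471 in the 18 arrays, 1772 with no filter and 292 with probes detected on every array.

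Reversals were all in uncalled genes, and their cause was not tested. Ppm1m (-0.0078) turned to 0.0182 in the authors' table, 0.0027 with Rpl29 as a continuous covariate, 0.0709 with the first principal component, 0.0572 with the pancreas score, 0.0279 with strain number, 0.00168 with H2-Ab1 level and 0.154 in the 18 arrays. Pcbp4 (0.0038) turned to -0.00945, -0.00192, -0.0322, -0.026 and -0.0233 in the first 5 of these, to -0.0602 in males and to -0.0234 with sex. H2-Ab1 (-0.114) turned to 0.217 with the principal component, 0.127 with the pancreas score, 0.25 with strain number, 0.0337 with its own level and 0.157 in the 18 arrays. With the principal component and the pancreas score Mzb1 (-0.0796) turned to 0.0215 and 0.00919, and Fcer1g (-0.317) to 0.0138 and 0.0372. With strain number Alas1 turned to -0.00344, Cd2 to 0.0244, Plk1 to -0.0355 and Psmb6 to -0.0688. In the 18 arrays Mzb1 turned to 0.148, Gtse1 to -0.00115, Ccng1 to 0.0453, Cd2 to 0.0245 and Psmb6 to -0.504. Eef1a1 turned to 0.00861 in the authors' table. With 1 array left out, Ppm1m ran from -0.0343 to 0.0161 and Pcbp4 from -0.0334 to 0.0355.

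No paired analysis was possible because the arrays form 1 labelled group with 1 array per strain.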
